A study of Arabidopsis thaliana with 18 samples.

Results

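Induced seedlings of a PLT4 line were compared with induced seedlings of a PLT5 line, a comparison that takes 3 libraries of each line and so 6 of the 18 libraries of the series, chosen by their titles. Both lines were Arabidopsis thaliana seedlings that carried a PLETHORA (PLT) protein fused to the hormone-binding part of the glucocorticoid receptor (GR), driven by the constitutive 35S promoter. The descriptions of these libraries name the fusions 35S-PLT4-GR and 35S-PLT5-GR, and both lines were treated with 10 µM of the steroid dexamethasone (dex) for 6 h, which lets the fusion protein enter the nucleus. A mock group of 4 libraries was PLT4-line seedlings given DMSO, the solvent, for the same time. Seedlings were 4 days old when about 50 of them were moved to each flask of liquid medium, and treatment began the next day. RNA of whole seedlings was hybridised to arrays, and all levels below are log2 array signals.

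PLT proteins, also called AIL proteins, are AP2-domain transcription factors that maintain the root meristem and take part in embryo, lateral root and organ growth. PLT4 is BABY BOOM (BBM), known for inducing embryos on seedlings when it is expressed at high level. PLT5 is AINTEGUMENTA-LIKE5 (AIL5), known with its relatives for a role in leaf arrangement and in lateral root positioning. The comparison asks how the responses to these related factors differ. There was no mock group of the PLT5 line and no dex treatment of seedlings without a fusion, so the fusion protein, the line that carries it and its insertion site cannot be told apart. The labels leave unstated whether each line descends from 1 transformed plant.

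Libraries of 1 line resembled each other more than libraries of different lines. Pearson correlations over all probe sets were 0.995 to 0.997 within the PLT4 group, 0.997 in every pair within the PLT5 group and 0.989 to 0.993 between them. The 3′ minus 5′ signal of the actin control was 1.28 to 1.52 in the PLT4 group and 1.43 to 1.64 in the PLT5 group, and the ranges overlapped. PLT5 replicate 3 had a PLT2 signal of 6.07, against 4.06 and 3.95 in the other two PLT5 libraries. Outside the compared groups, the library labelled PLT1 replicate 3 did not carry the PLT1 signal of its label and had an actin 3′ minus 5′ value of 2.67. A raised signal of a PLT gene other than that of the label was seen in PLT5 replicate 3 and PLT1 replicate 3 (both PLT2), and also in PLT7 replicate 1 (AIL6, 6.49). PLT1 replicate 3 was left out of the fit, which pooled the spread of the other 17 libraries.

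Transcripts of the fusions were read first, since they check the labels. BBM stood at 10.82, 10.67 and 10.78 in the PLT4 line and at 4.62, 4.85 and 4.84 in the PLT5 line, while the mock libraries of the PLT4 line ranged from 11.41 to 11.58. AIL5 stood at 6.86, 6.61 and 7.05 in the PLT4 line and at 11.26, 11.13 and 11.21 in the PLT5 line, with 6.07 to 6.50 in mock. Each library was high for the fusion of its own label. The log2 difference, PLT4 line minus PLT5 line, was 5.99 ± 0.09 for BBM (SE, n = 3 each; limma, adjusted p = 4.74e-18) and -4.36 ± 0.14 for AIL5 (adjusted p = 1.27e-12). The 6 other family members did not pass the test, as the plot of family transcripts shows. BBM was 0.72 lower in the induced than in the mock libraries of the same line (SE 0.08, adjusted p = 1.38e-06), a call lost when the left-out 18th library entered the fit (adjusted p = 0.0767). AIL5 was 0.49 ± 0.13 higher in the induced PLT4 line than in mock (adjusted p = 0.00502).

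**Figure D1:**
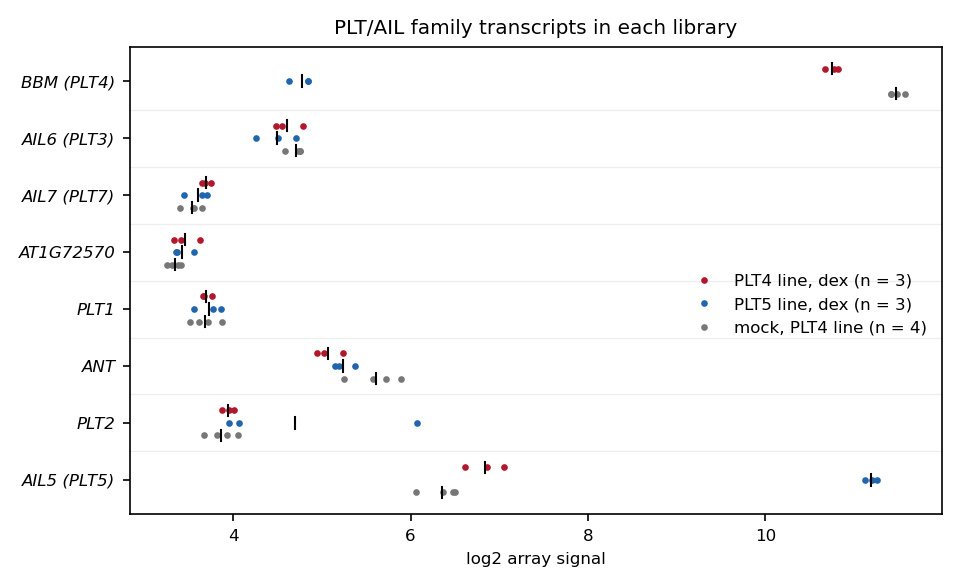
Log2 array signal (horizontal axis) of the 8 PLT/AIL family genes in the PLT4 line with dex, the PLT5 line with dex and mock, 1 point per library and a bar at each group's mean. BBM is high in PLT4-line libraries, AIL5 in PLT5-line libraries, and PLT2 has 1 PLT5-line library at 6.07.

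Of 21430 probe sets, 767 were higher in the PLT4 line (3.58%) and 774 lower (3.61%), together 7.19% of all, at an adjusted p under 0.05 from limma with Benjamini-Hochberg adjustment. Most of these differences were small. The median size was 0.44 for those higher and 0.55 for those lower, and the middle 90% of all probe sets lay between -0.33 and 0.33 around a median of 0.02. A difference of at least 2-fold was reached by 50 called probe sets higher in the PLT4 line (0.233%) and 98 lower (0.457%). Against mock, 8468 probe sets were called in the PLT4 line (39.5%) and 6283 in the PLT5 line (29.3%), with the mock libraries shared by both comparisons. The number of calls depended on single libraries: it was 944 without PLT4 replicate 1, 699 without PLT4 replicate 3, 668 without PLT5 replicate 2 and 896 without PLT5 replicate 3. With all 18 libraries it was 455, with the 6 compared libraries alone 2272, and 525 of the 1541 calls (225 higher, 300 lower) held whichever PLT4, PLT5 or mock library was left out.

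**Figure D2:**
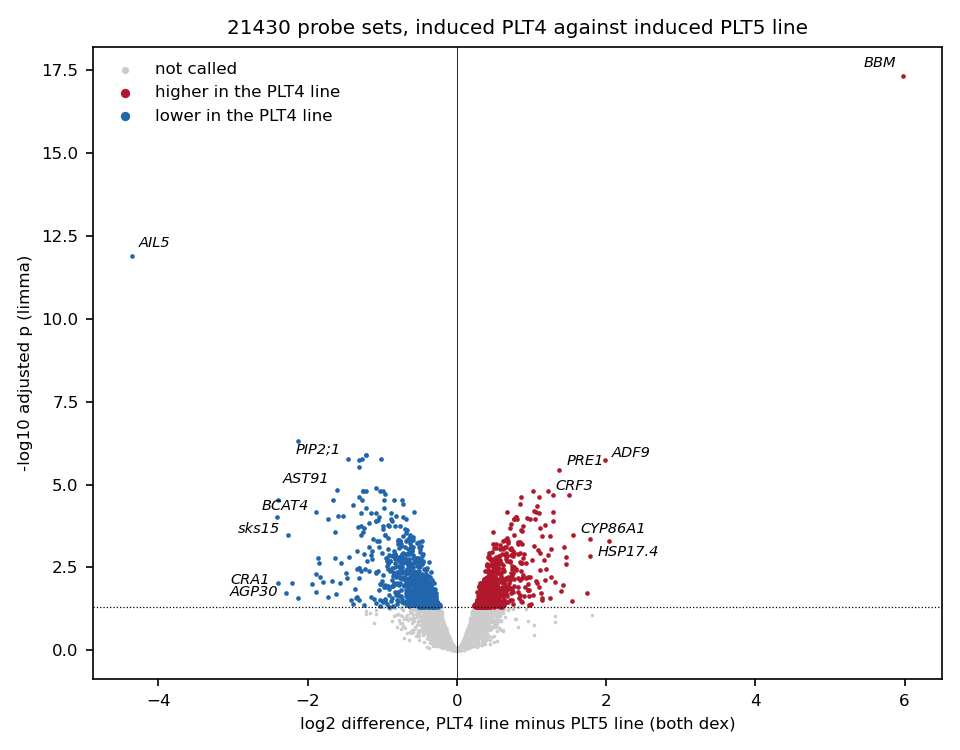
Log2 difference, PLT4 line minus PLT5 line, against -log10 of the adjusted p for 21430 probe sets, with the dotted line at the threshold of 0.05. Apart from BBM and AIL5, the fusions themselves, no called probe set differs by more than 2.40 (log2), and ADF9, PRE1, PIP2;1 and AST91 are among those with small adjusted p.

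Several genes were above mock in both lines and higher in the PLT4 line. ADF9, an actin-depolymerising factor, had 8.76, 8.79 and 9.02 in the PLT4 line and 6.86, 6.63 and 7.15 in the PLT5 line, against 4.37 to 5.20 in mock. The 3 groups did not overlap, and the lines differed by 1.98 ± 0.16 (SE, adjusted p = 1.87e-06), the largest rise among genes with a symbol apart from the fusion gene BBM. CRF3, a cytokinin response factor of the AP2/ERF class, had 8.13, 8.26 and 8.37 in the PLT4 line, 7.24, 6.79 and 7.06 in the PLT5 line and 4.35 to 4.80 in mock. Its groups were likewise separate, with a difference of 1.22 ± 0.12 (adjusted p = 1.61e-05). Lack of overlap between the lines was required for a place among the 15 largest rises, ADF9 and CRF3 included. GLIP7, a GDSL-type lipase, had 7.67, 7.61 and 7.62 in the PLT4 line, 6.39, 6.35 and 6.29 in the PLT5 line and 4.20 to 4.52 in mock (difference 1.29 ± 0.15, adjusted p = 6.76e-05). The libraries of either line lay close together. CYP78A7, a cytochrome P450 of a family known to promote organ growth, had 7.54, 7.93 and 7.57 in the PLT4 line, 6.43, 6.54 and 6.52 in the PLT5 line and 5.68 to 6.13 in mock (difference 1.19 ± 0.15, adjusted p = 0.00017). The calls of these 4 genes between the lines held in every alternative fit that was run.

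Auxin genes moved both ways between the lines. YUC8, a flavin monooxygenase that makes auxin, had 9.86, 9.82 and 9.99 in the PLT4 line, 9.38, 9.03 and 9.08 in the PLT5 line and 6.62 to 6.81 in mock. Both induced groups lay far above mock, by 3.16 ± 0.09 in the PLT4 line and 2.43 ± 0.09 in the PLT5 line (adjusted p = 1.67e-13 and 4.54e-12), and they differed by 0.73 ± 0.09 (adjusted p = 0.000154). YUC8 was the only one of the 14 measured auxin synthesis genes that was called, against 7.19% of all probe sets. TAA1, which makes the substrate of the YUC enzymes, differed by 0.20 ± 0.09 (adjusted p = 0.217). Of 18 measured auxin response genes, 5 rose (IAA30, IAA1, IAA29, IAA2 and GH3.6) and 2 fell (IAA20 and IAA14), against 3.58% and 3.61% of all probe sets, with a list median of 0.15. IAA30, an Aux/IAA repressor, had 6.26, 6.57 and 6.42 in the PLT4 line, 5.42, 5.22 and 5.32 in the PLT5 line and 4.66 to 4.97 in mock (2.14-fold higher in the PLT4 line, with an SE of 0.11 on the log2 scale, adjusted p = 2.3e-05). IAA1, another of these repressors, had 7.01, 7.06 and 6.76 in the PLT4 line, 5.95, 5.98 and 6.10 in the PLT5 line and 5.90 to 6.26 in mock, so that the PLT5 libraries lay within the mock range (difference 0.93 ± 0.11, adjusted p = 0.000104). IAA20 went the other way, with 5.02, 4.96 and 4.93 in the PLT4 line, 5.52, 5.58 and 5.43 in the PLT5 line and 5.41 to 5.97 in mock (difference -0.54 ± 0.11, adjusted p = 0.00766). These 7 calls held whichever library was left out. The IAA2 call was lost with all 18 libraries (adjusted p = 0.0788), and the IAA29 call when the 3 libraries with a raised signal of another PLT gene were left out together (adjusted p = 0.0531).

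Among the auxin carriers, PIN3 and ABCB4 were higher in the PLT4 line. PIN3, an efflux carrier, had 9.55, 9.42 and 9.49 in the PLT4 line, 9.03, 9.15 and 9.01 in the PLT5 line and 9.37 to 9.42 in mock, which placed the mock values between the lines or at the PLT4 level (difference 0.43 ± 0.07, adjusted p = 0.00168). ABCB4, an auxin carrier of the ABC transporter class, differed by 0.47 ± 0.12 (adjusted p = 0.0194). The ABCB4 call was lost without PLT4 replicate 1 or 3 or PLT5 replicate 2 or 3 (adjusted p up to 0.114). With all 18 libraries PIN3 was not called (adjusted p = 0.222).

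PRE1, a small atypical HLH protein that promotes cell elongation, was on opposite sides of mock in the lines. It had 6.06, 5.97 and 6.02 in the PLT4 line, 4.42, 4.89 and 4.63 in the PLT5 line, and 5.05 to 5.54 in mock. The PLT4 line was 0.67 ± 0.11 above mock (adjusted p = 0.000109), the PLT5 line -0.70 ± 0.11 from it (adjusted p = 0.000118), and the lines differed by 1.37 ± 0.12 (adjusted p = 3.54e-06). BEE1 and BEE2, bHLH factors induced by brassinosteroid, fell in both lines against mock and lay lower in the PLT4 line. Against mock BEE1 stood at -2.22 ± 0.13 in the PLT4 line and -1.39 ± 0.13 in the PLT5 line, and BEE2 at -2.21 ± 0.12 and -1.16 ± 0.12 in the same order (adjusted p = 1.45e-06 for BEE2 in the PLT5 line, but 0.0645 with all 18 libraries). BEE1 had 4.87, 5.03 and 4.50 in the PLT4 line, 5.40, 5.71 and 5.75 in the PLT5 line and 6.87 to 7.18 in mock (difference between lines -0.82 ± 0.13, adjusted p = 0.00121). BEE2 had 6.38, 6.46 and 6.01 in the PLT4 line, 7.11, 7.47 and 7.42 in the PLT5 line and 8.41 to 8.57 in mock (difference -1.05 ± 0.13, adjusted p = 9.23e-05, but 0.285 with all 18 libraries). These were the 3 calls among 11 measured genes of the elongation bHLH list, against 7.19% of all probe sets, and PIF1, PIF3, PIF4 and PIF5 were not called.

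Aquaporins, the channels that carry water across the plasma membrane (PIP) and the vacuolar membrane (TIP), were the list with the lowest median, -0.72. Of 14 measured members 10 were lower in the PLT4 line and 0 higher, where 3.61% of all probe sets were called lower. PIP2;1 had 9.48, 9.41 and 9.06 in the PLT4 line and 10.66, 10.93 and 10.75 in the PLT5 line, against 11.89 to 12.03 in mock. TIP1;1 had 9.23, 9.32 and 9.14 in the PLT4 line and 10.18, 10.39 and 10.18 in the PLT5 line, against 11.18 to 11.32 in mock. Both genes had their lowest values in the PLT4 line and their highest in mock, with no overlap between any groups. The lines differed by -1.46 ± 0.12 for PIP2;1 and by -1.02 ± 0.08 for TIP1;1 (adjusted p = 1.66e-06 for each). PIP1;1, with 9.18, 9.49 and 8.89 in the PLT4 line, 10.33, 10.64 and 10.50 in the PLT5 line and 11.16 to 11.72 in mock, differed by -1.31 ± 0.14 (adjusted p = 2.3e-05). Against mock, PIP1;1 fell by 2.27 in the PLT4 line and by 0.96 in the PLT5 line (SE 0.13 each, adjusted p = 4.88e-10 and 1.99e-05). In 13 of the 14 genes the libraries of the lines did not overlap, which held for 29.1% of all probe sets. The exception was PIP2;5, at 6.47, 6.00 and 6.44 in the PLT4 line and 6.02, 5.93 and 5.70 in the PLT5 line. The calls of PIP2;4 and TIP2;1 were lost without PLT4 replicate 3 or PLT5 replicate 2, and that of PIP2;4 also without PLT5 replicate 3 (adjusted p up to 0.106 for PIP2;4 and 0.073 for TIP2;1). With all 18 libraries 4 members remained called (PIP1;1, PIP1;3, PIP1;5 and PIP2;4), and PIP2;1 and TIP1;1 had adjusted p of 0.129 and 0.126.

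Genes of aliphatic glucosinolates, the methionine-derived defence compounds of the cabbage family, were called lower in the PLT4 line in 9 of 11 measured members, against 3.61% of all probe sets (list median -0.67). BCAT4, the aminotransferase that starts the extension of methionine, had 7.69, 8.60 and 7.54 in the PLT4 line, 9.79, 9.99 and 9.72 in the PLT5 line and 9.49 to 10.03 in mock. The PLT5 libraries lay within the mock range and all PLT4 libraries below it (difference between lines -1.89 ± 0.22, adjusted p = 6.54e-05). MAM1, a methylthioalkylmalate synthase of the same extension cycle, had 8.25, 8.99 and 7.72 in the PLT4 line, 9.62, 9.83 and 9.85 in the PLT5 line and 9.84 to 10.35 in mock (difference -1.44 ± 0.24, adjusted p = 0.00155). For AOP2, which modifies the side chain, the values were 7.12, 7.98 and 7.14 in the PLT4 line, 9.03, 9.24 and 9.15 in the PLT5 line and 9.57 to 10.26 in mock (difference -1.73 ± 0.21, adjusted p = 0.000107). CYP83A1, which makes the core structure, had 7.69, 8.20 and 7.41 in the PLT4 line, 8.93, 9.11 and 9.12 in the PLT5 line and 9.32 to 9.88 in mock (difference -1.28 ± 0.17, adjusted p = 0.000174). PLT4 replicate 2 was the highest of its group in these 4 genes. The lines did not overlap in them, which BCAT4 and AOP2 had to meet to be among the 15 largest falls. The transcription factor genes MYB28 and MYB29 differed by -0.50 (adjusted p = 0.0402) and -0.15 (adjusted p = 0.56). The calls of SOT18, MAM3 and MYB28 were lost without PLT4 replicate 3, that of MAM3 also without PLT5 replicate 2, and that of MYB28 without any compared library but PLT4 replicate 2 (adjusted p up to 0.0502, 0.0622 and 0.169). With all 18 libraries 4 members remained called (AOP2, BCAT4, FMO-GS-OX1 and AT2G31790). None of 12 measured genes of the indole glucosinolate pathway, which starts from tryptophan, was called (median 0.03).

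**Figure D3:**
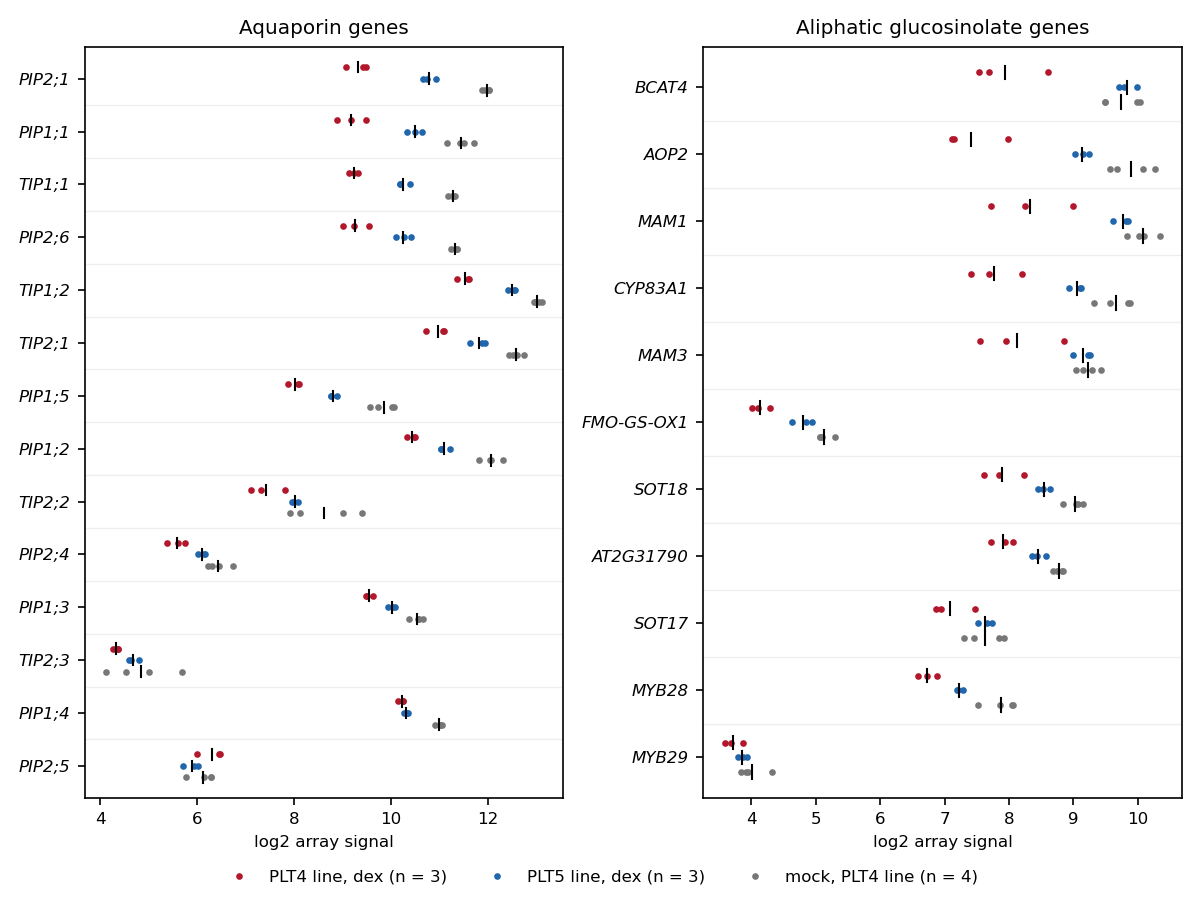
Log2 array signal of 14 aquaporin genes and 11 aliphatic glucosinolate genes in the PLT4 line with dex, the PLT5 line with dex and mock, 1 point per library, bars at group means, ordered by the difference between the lines. For 13 aquaporins and 10 glucosinolate genes the PLT4 points lie below all PLT5 points, where 29.1% of all probe sets did not overlap in either direction.

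In whole seedlings, fewer cells of a type and less RNA per cell cannot be told apart. The summed level of 5 root markers (CASP1, ESB1, PRP3, COBL9 and LRX1) was 7.54 to 8.21 in the PLT4 line, 8.06 to 8.32 in the PLT5 line and 8.999 to 9.537 in mock, and none of the 5 was called between the lines. Within its group, PLT4 replicate 3 had the lowest root sum and PLT4 replicate 2 the highest. The 5 measured shoot markers summed to 15.36 to 15.44 in the PLT4 line, 15.43 to 15.48 in the PLT5 line and 15.54 to 15.59 in mock, with none called. The summed level of 3 xylem markers was 6.52 to 6.94 in the PLT4 line, 7.00 to 7.08 in the PLT5 line and 7.33 to 7.66 in mock, without overlap but with none called. PLT4 replicate 3 was the lowest of its group in 12 of the 14 aquaporins and 9 of the 11 aliphatic glucosinolate genes, against 38.4% of all probe sets. Mock replicate 3 was the lowest mock library in 12 of the 14 aquaporins and 1 of the 11 glucosinolate genes. Over all probe sets its share was 29.0%. The part of root content in these results was not tested.

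Among the 15 largest falls, several genes are best known from seeds and from abscisic acid responses. CRA1, a cruciferin storage protein, had 5.32, 5.94 and 4.54 in the PLT4 line and 7.40, 7.85 and 7.76 in the PLT5 line, with 8.54, 7.48, 6.11 and 8.64 in mock. The lines did not overlap, as the choice of the largest falls required, while the mock libraries spread widely (difference between lines -2.40 ± 0.52, adjusted p = 0.00911). LEA18, a late embryogenesis abundant protein, had 5.60, 5.48 and 5.05 in the PLT4 line, 7.02, 7.00 and 7.14 in the PLT5 line and 7.72, 7.02, 5.86 and 7.84 in mock (difference -1.68 ± 0.36, adjusted p = 0.00815). TSPO, a membrane protein induced by abscisic acid, had 5.62, 5.60 and 5.13 in the PLT4 line, 7.12, 7.41 and 7.38 in the PLT5 line and 7.32, 6.54, 5.63 and 7.61 in mock (difference -1.85 ± 0.33, adjusted p = 0.00236). In each of these genes mock replicate 3 was the lowest mock library. PER1, a seed peroxiredoxin, differed by -1.83 ± 0.37 (adjusted p = 0.00634), HVA22B by -1.56 ± 0.34 (adjusted p = 0.0092) and CYS2, a cystatin, by -1.55 ± 0.28 (adjusted p = 0.00226). LEA7 and the oleosin OLEO2, a protein of seed oil bodies, differed by -2.21 ± 0.48 and -1.89 ± 0.45 (adjusted p = 0.00961 and 0.0169). Of the 9 measured seed storage genes CRA1 and OLEO2 were called, both lower, against 3.61% of all probe sets, and the list median was -0.08. The calls of CRA1 and LEA7 were lost without PLT4 replicate 3 (adjusted p = 0.0608 and 0.0652), the OLEO2 call without any one of PLT4 replicates 1 and 3 or PLT5 replicates 2 and 3 (adjusted p up to 0.0743), and the calls of LEA7, OLEO2 and PER1 with all 18 libraries (adjusted p = 0.0596, 0.0729 and 0.0524). No call was made among 11 embryo regulators, which include LEC1, LEC2, FUS3 and ABI3 (median 0.03).

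Transport genes were also among the largest falls. NRT1.5, a nitrate transporter that loads the xylem in roots, had 5.99, 6.09 and 5.43 in the PLT4 line, 7.97, 8.42 and 8.33 in the PLT5 line and 7.53 to 9.21 in mock. The PLT4 libraries were below all others, and the lines differed by -2.40 ± 0.29 (adjusted p = 9.63e-05). AST91, a sulfate transporter, had 4.93, 5.08 and 4.75 in the PLT4 line, 6.45, 6.69 and 6.43 in the PLT5 line and 6.97 to 7.74 in mock (difference -1.60 ± 0.16, adjusted p = 1.43e-05). NRT3.1, the partner protein of high-affinity nitrate transporters, had 7.39, 7.67 and 7.08 in the PLT4 line, 8.35, 8.18 and 8.56 in the PLT5 line and 6.41 to 7.54 in mock. It was thus above all mock libraries in the PLT5 line (difference between lines -0.98 ± 0.22, adjusted p = 0.0124), but the call was lost without PLT4 replicate 3 or PLT5 replicate 3 (adjusted p up to 0.0765). With all 18 libraries NRT3.1 was not called either (adjusted p = 0.173). In the nitrate list, which does not hold NRT1.5, it was the 1 call of 7 measured genes, against 7.19% of all probe sets.

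The genes sks15 and NAS4 were above mock in the PLT5 line and less so, or not at all, in the PLT4 line. The multicopper-oxidase-like gene sks15 had 4.40, 4.99 and 3.76 in the PLT4 line, 6.73, 6.66 and 6.57 in the PLT5 line and 3.69 to 5.21 in mock. Its PLT4 libraries lay within the mock range and its PLT5 libraries above it, with 2.22 ± 0.30 between the PLT5 line and mock (adjusted p = 2.09e-05) and -2.27 ± 0.32 between the lines (adjusted p = 0.000331). NAS4, an enzyme that makes the metal chelator nicotianamine, had 6.12, 6.38 and 6.11 in the PLT4 line, 7.05, 7.08 and 7.14 in the PLT5 line and 5.58 to 6.01 in mock (difference between lines -0.88 ± 0.10, adjusted p = 7e-05). With all 18 libraries the NAS4 difference was not called (adjusted p = 0.175). FIT, the bHLH regulator of iron uptake, was below mock in the PLT4 line and not called against mock in the PLT5 line (adjusted p = 0.000638 and 0.876). It had 4.75, 4.86 and 4.38 in the PLT4 line, 5.48, 5.06 and 5.54 in the PLT5 line and 5.24 to 5.45 in mock (difference -0.70 ± 0.14, adjusted p = 0.00643, and 0.0548 without the 3 libraries with a raised signal of another PLT gene). FER1, the iron store ferritin, was higher in the PLT4 line instead, at 11.11, 11.05 and 11.06 against 9.95, 10.12 and 10.23 in the PLT5 line, with mock at 11.02 to 12.25 (difference 0.97 ± 0.20, adjusted p = 0.00633, and 0.334 with all 18 libraries). These were the 3 calls among 6 measured iron genes, against 7.19% of all probe sets.

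**Figure D4:**
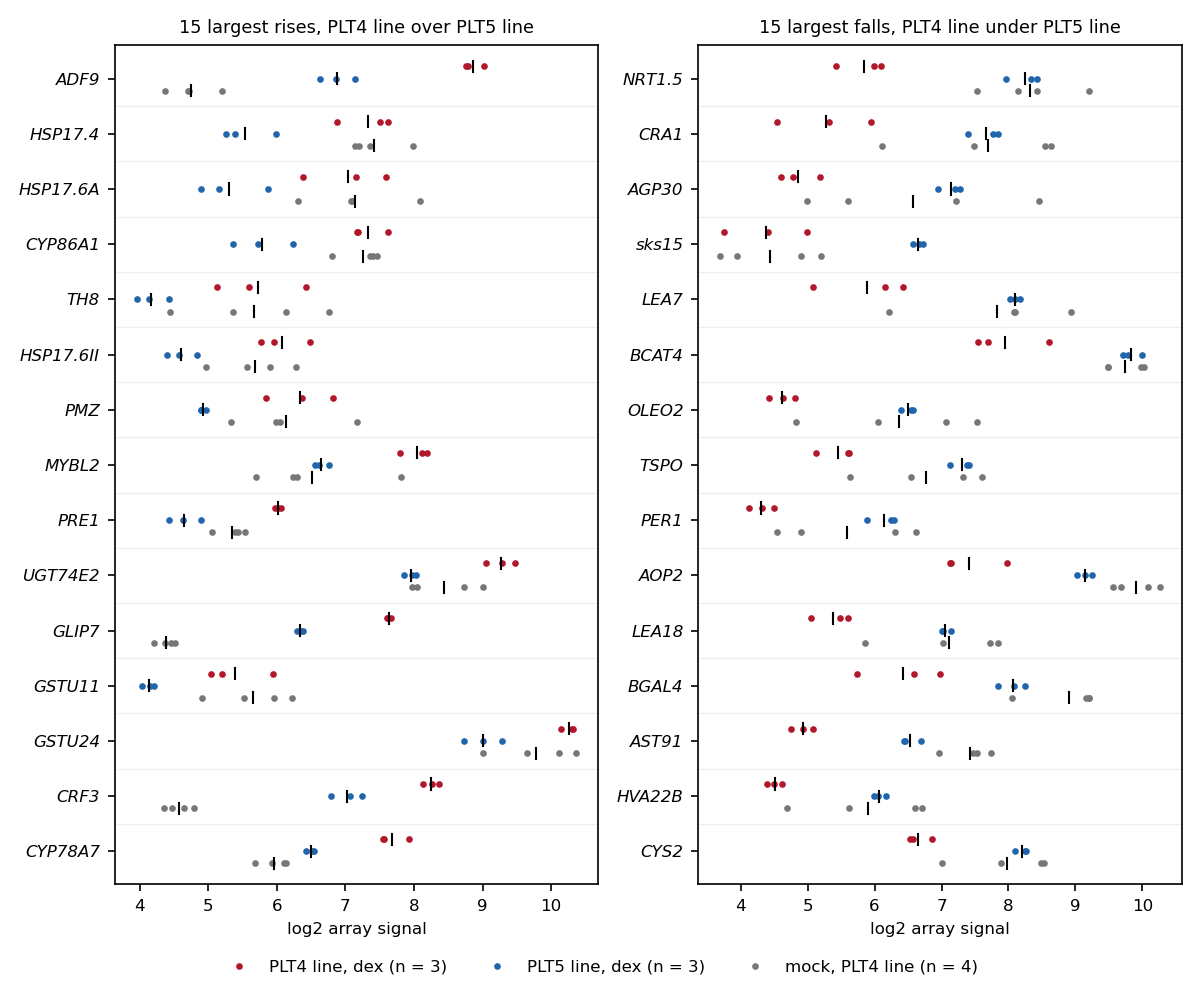
Log2 array signal of the 15 largest rises (left) and 15 largest falls (right) of the PLT4 line against the PLT5 line, 1 point per library in the PLT4 line with dex, the PLT5 line with dex and mock, with bars at group means. ADF9, GLIP7 and CRF3 lie above mock in both lines, and for CRA1, LEA18 and TSPO mock spreads widely.

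Another set of the largest rises was near mock in the PLT4 line and low in the PLT5 line. HSP17.4, a small heat-shock protein, had 7.51, 6.88 and 7.62 in the PLT4 line, 5.99, 5.39 and 5.25 in the PLT5 line and 7.14 to 7.98 in mock (difference between lines 1.79 ± 0.30, adjusted p = 0.00144). Against mock it stood at -0.09 ± 0.28 in the PLT4 line (adjusted p = 0.852) and at -1.88 ± 0.28 in the PLT5 line (adjusted p = 6.29e-05). HSP17.6II, of the same family, had 5.76, 6.48 and 5.96 in the PLT4 line, 4.84, 4.57 and 4.41 in the PLT5 line and 4.96 to 6.28 in mock (difference 1.46 ± 0.27, adjusted p = 0.00258). CYP86A1, a fatty acid hydroxylase of suberin synthesis, had 7.62, 7.19 and 7.18 in the PLT4 line, 5.73, 6.24 and 5.36 in the PLT5 line and 6.80 to 7.46 in mock (difference 1.55 ± 0.22, adjusted p = 0.000331). GPAT5, an acyltransferase of the same pathway, differed by 0.53 ± 0.10 (adjusted p = 0.00415). These 4 calls held whichever library was left out, but with all 18 libraries only that of HSP17.6II did (adjusted p = 0.0159, against 0.11 for HSP17.4, 0.0644 for CYP86A1 and 0.0598 for GPAT5). GSTU11, a glutathione transferase, had 5.04, 5.19 and 5.95 in the PLT4 line, 4.21, 4.03 and 4.16 in the PLT5 line and 4.92 to 6.22 in mock (difference 1.26 ± 0.26, adjusted p = 0.00627). Heat, cold and drought genes gave 3 calls of 13 measured, all higher in the PLT4 line (HSP17.6II, ZAT10 and HSP101) against 3.58% of all probe sets, and HSFA2, HSP18.2 and RD29A were not called. In the endodermis and suberin list CASP1, of the Casparian strip, was not called. That list gave 2 calls higher and 1 lower of 16, against 3.58% and 3.61% of all probe sets. The lower one was the peroxidase PER64, with 4.55, 5.30 and 4.18 in the PLT4 line, 5.09, 6.04 and 5.78 in the PLT5 line and 6.68 to 7.41 in mock (difference -0.96 ± 0.26, adjusted p = 0.0331), where the lines overlapped. The calls of ZAT10 and PER64 were lost without PLT4 replicate 1 or 3 or PLT5 replicate 2 or 3 (adjusted p up to 0.0872 and 0.176), and that of HSP101 without PLT4 replicate 2 or PLT5 replicate 1 or 3 (adjusted p up to 0.0924).

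The remaining genes of largest rise, apart from UGT74E2, lost their calls when 1 or more single libraries were left out. MYBL2, a repressor of anthocyanin synthesis, had 8.19, 8.12 and 7.80 in the PLT4 line, 6.61, 6.56 and 6.76 in the PLT5 line and 6.30, 5.70, 6.24 and 7.80 in mock (difference 1.39 ± 0.33, adjusted p = 0.0165). Mock replicate 4 reached the level of the lowest PLT4 library. UGT74E2, a glycosyltransferase that acts on an auxin, had 9.28, 9.05 and 9.47 in the PLT4 line, 8.04, 7.85 and 7.97 in the PLT5 line and 7.97 to 9.01 in mock (difference 1.31 ± 0.28, adjusted p = 0.00845, and 0.115 with all 18 libraries). HSP17.6A, TH8, a thioredoxin, PMZ, a zinc finger protein, and GSTU24 differed by 1.74 ± 0.43, 1.55 ± 0.42, 1.42 ± 0.32 and 1.25 ± 0.32 (adjusted p = 0.0191, 0.0319, 0.0108 and 0.0259). Each of these 4 calls and that of MYBL2 was lost when 1 or more single libraries were left out (adjusted p up to 0.103, 0.167, 0.0713, 0.125 and 0.0697): for PMZ this was PLT4 replicate 3, for MYBL2 PLT4 replicate 1 or 2 or PLT5 replicate 2, and for the other 3 PLT4 replicate 1 or 3 or PLT5 replicate 2, among others. Among the falls, the galactosidase BGAL4 had 6.59, 6.97 and 5.73 in the PLT4 line, 8.09, 8.25 and 7.85 in the PLT5 line and 8.06 to 9.21 in mock (difference -1.63 ± 0.28, adjusted p = 0.00167). AGP30, a root arabinogalactan protein, differed by -2.29 ± 0.56 (adjusted p = 0.0184), with mock from 4.99 to 8.46, and was lost without PLT4 replicate 1 or 3 or PLT5 replicate 2 or 3 (adjusted p up to 0.0799). With all 18 libraries the calls of HSP17.6A, TH8, PMZ, GSTU24 and AGP30 were lost as well. Of the 15 largest falls, 14 had their lowest PLT4 value in replicate 3, and 13 their lowest mock value in mock replicate 3, against 38.4% and 29.0% of all probe sets.

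Of 14 measured expansin and XTH genes, 2 were called higher, 2 lower and 10 not at all, with a list median of 0.04. Over all probe sets, 3.58% were called higher and 3.61% lower. XTH4, a xyloglucan endotransglucosylase that remodels the wall, had 11.42, 11.47 and 11.19 in the PLT4 line, 11.91, 12.13 and 12.04 in the PLT5 line and 12.51 to 12.66 in mock (difference -0.67 ± 0.09, adjusted p = 0.000229). XTH17 had 4.62, 4.83 and 4.16 in the PLT4 line, 5.45, 5.89 and 5.45 in the PLT5 line and 6.65 to 7.53 in mock (difference -1.06 ± 0.20, adjusted p = 0.00398, and 0.146 with all 18 libraries). In both genes the groups were separate, with mock highest and the PLT4 line lowest. The expansins EXPA5 and EXPA15 were called higher, by 0.47 ± 0.13 and 0.36 ± 0.10 (adjusted p = 0.0359 and 0.0442). Both expansin calls were lost in 4 or more of the fits without a single library, PLT4 replicate 1 or 3 and PLT5 replicate 2 or 3 among them (adjusted p up to 0.182 and 0.195). With all 18 libraries neither was called (adjusted p = 0.523 for EXPA5 and 0.0976 for EXPA15).

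Clock genes gave 3 calls of 9 measured, all higher in the PLT4 line, where 3.58% of all probe sets were called higher. TOC1, an evening component of the clock, had 7.36, 7.44 and 7.41 in the PLT4 line, 6.71, 6.56 and 6.67 in the PLT5 line and 6.42 to 6.95 in mock (difference 0.76 ± 0.12, adjusted p = 0.000994). GRP7, a clock-controlled RNA-binding protein, differed by 0.72 ± 0.17 (adjusted p = 0.0144) and PRR5 by 0.97 ± 0.28 (adjusted p = 0.0422). CCA1 and LHY, the morning components, stood at -0.59 and -0.32 without a call (adjusted p = 0.287 and 0.73). The GRP7 call was lost without PLT5 replicate 1 or 2 (adjusted p up to 0.0622) and the PRR5 call without any one of the 6 compared libraries (adjusted p up to 0.141). With all 18 libraries neither was called (adjusted p = 0.0579 for GRP7 and 0.18 for PRR5). The genotypes were induced 5 min apart per the labels' protocols, and the part of harvest time was not tested.

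Growth-related lists gave few calls between the lines. All 7 ribosome biogenesis genes were higher in every PLT4 library than in every PLT5 library, by 0.30 to 0.39, and 3 of them were called (FIB1, FIB2 and NAP57). Over all probe sets, 29.1% did not overlap in either direction and 3.58% were called higher. FIB2, a fibrillarin of the nucleolus, had 11.23, 11.34 and 11.21 in the PLT4 line, 10.84, 10.83 and 11.08 in the PLT5 line and 9.77 to 10.08 in mock (difference 0.34 ± 0.10, adjusted p = 0.0403). None of these 3 calls held in every fit without a single library, each being lost without PLT4 replicate 1 or 2 or PLT5 replicate 1 or 2, FIB2 also without PLT4 replicate 3, and FIB1 without any one of the 6 compared libraries (adjusted p up to 0.17 for FIB2, 0.14 for NAP57 and 0.114 for FIB1). The 14 mitosis genes had a median of 0.22 and the 16 G1/S and replication genes one of 0.03, and none was called. GIF1, a coactivator of growth-regulating factors, had 7.67, 7.56 and 7.68 in the PLT4 line, 8.05, 7.89 and 7.86 in the PLT5 line and 5.20 to 5.76 in mock. Both lines were well above mock, and their own difference of -0.30 ± 0.12 did not pass the test (adjusted p = 0.181). No member was called among 10 growth-regulating factor genes, 11 shoot meristem genes, 13 photosynthesis genes, 10 hypoxia genes and 8 salicylate genes.

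The gibberellin, cytokinin and ethylene lists gave 1, 4 and 2 calls of 9, 17 and 12 measured genes. Over all probe sets, 7.19% were called. GA20OX2, a gibberellin synthesis enzyme, had 5.76, 5.78 and 6.13 in the PLT4 line, 5.17, 5.02 and 5.21 in the PLT5 line and 4.91 to 5.33 in mock (difference 0.75 ± 0.12, adjusted p = 0.00121, and 0.281 with all 18 libraries). It was the 1 call among 9 gibberellin genes. Of 17 cytokinin genes, CRF3 and CRF2 were higher and the response regulators ARR7 and ARR8 lower, the last by -0.43 ± 0.10 (adjusted p = 0.0144). ARR7 had 5.58, 5.57 and 5.36 in the PLT4 line, 6.03, 5.92 and 5.95 in the PLT5 line and 6.29 to 6.86 in mock (difference -0.46 ± 0.11, adjusted p = 0.0152). ARR7 was lost as a call without PLT4 replicate 3 or PLT5 replicate 1, ARR8 without PLT4 replicate 2 or PLT5 replicate 3, and CRF2 without any one of the 6 compared libraries (adjusted p up to 0.0912, 0.0795 and 0.15). Among the ethylene genes, ACS4, a synthesis enzyme, was higher in the PLT4 line by 0.45 ± 0.13 (adjusted p = 0.0484).

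Further lists gave 1 or 2 calls each, where 3.58% of all probe sets were called higher and 3.61% lower. LBD16, which acts downstream of auxin in lateral root founding, had 5.62, 5.86 and 5.74 in the PLT4 line, 6.22, 6.13 and 6.18 in the PLT5 line and 5.57 to 5.83 in mock (difference -0.44 ± 0.11, adjusted p = 0.0243). The PLT5 libraries were thus the highest, and LBD33 was the other call of the 6 lateral root genes (-0.43 ± 0.13, adjusted p = 0.0499). The xylem proteases XCP1 and XCP2 fell by 0.43 and 0.38 on the log2 scale (SE 0.12 and 0.10, adjusted p = 0.0366 and 0.0215), and the other 11 xylem genes were not called. Of 12 root hair genes, RHD6 was higher and RHD2 lower (0.29 ± 0.08 and -0.40 ± 0.11, adjusted p = 0.0379 and 0.034). SMB, a root cap factor, was the 1 call of 11 root meristem genes (-0.35 ± 0.09, adjusted p = 0.0294). TT7 of the flavonoid pathway was higher by 0.53 ± 0.13 (adjusted p = 0.0177), the touch gene TCH3 higher by 0.52 ± 0.13 (adjusted p = 0.0251) and the jasmonate synthesis gene AOS lower, at -0.55 ± 0.11 (adjusted p = 0.00723). None of these lists' calls, nor that of ACS4, held whichever library was left out: each was lost without PLT4 replicate 1 or 3 or both, most of them also without others, with an adjusted p of up to 0.239 (LBD33).

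**Figure D5:**
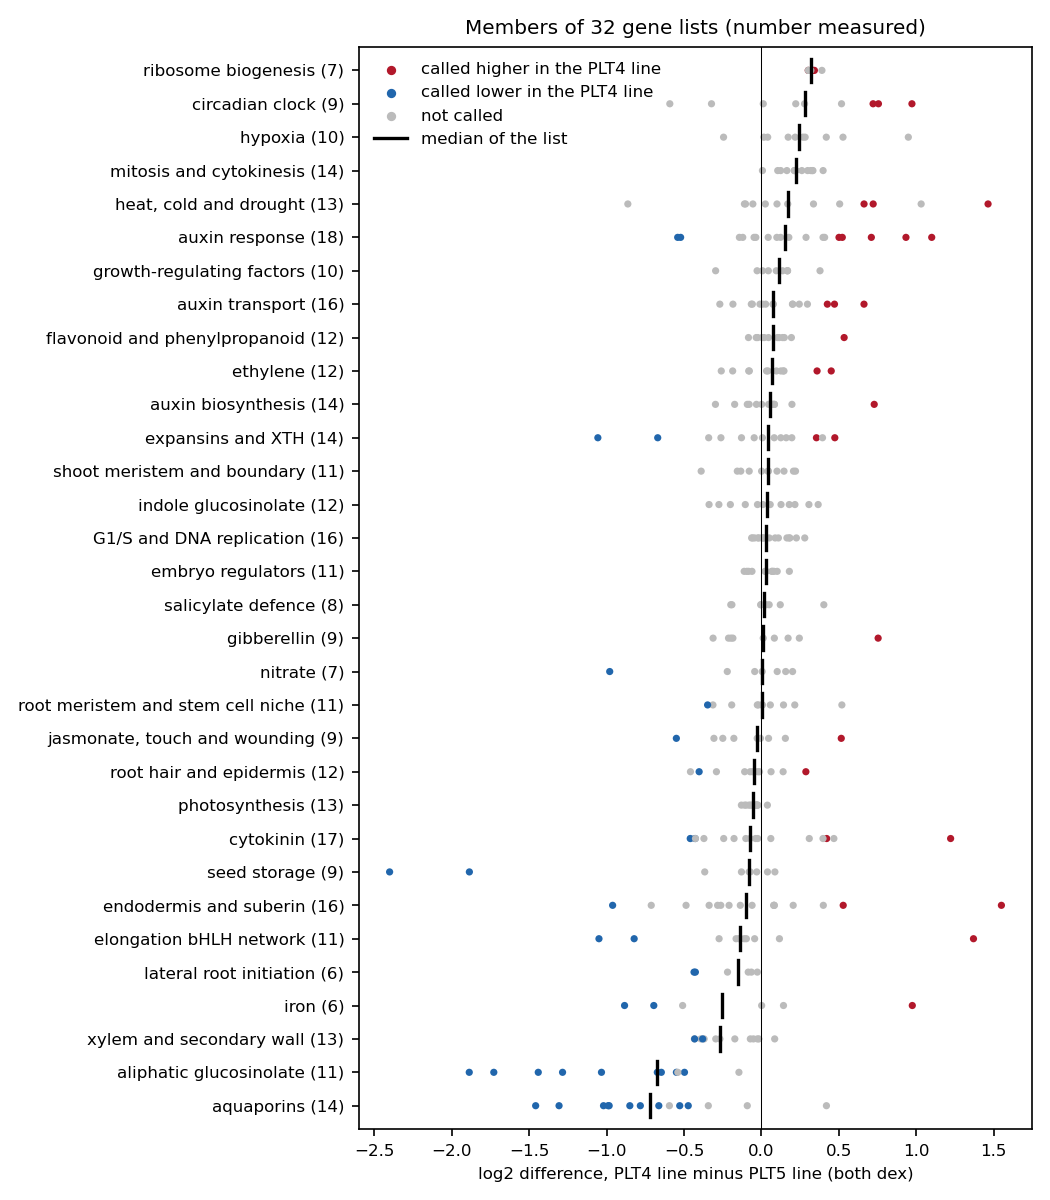
Log2 difference, PLT4 line minus PLT5 line, of the measured members of 32 gene lists, 1 point per gene and a bar at each list's median, with the number measured in brackets. Aquaporin and aliphatic glucosinolate medians lie at -0.72 and -0.67, against 0.02 over all probe sets, while the other lists have medians between -0.27 and 0.32.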

How the data were processed

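The authors deposited log2 values, 1 column per array. The submitters' processing notes name RMA and limma 3.24.15, without saying which step used either. RMA corrects background and forces arrays to a common distribution, so small signals are compressed and a shift shared by most genes is lost. Coordinates are left out, since the sources used here name no build. The table has 21494 probe sets, of which 64 are controls that served to check RNA quality. Probe sets were named through the TAIR10.1 RefSeq gene table (21231 matched, 199 did not).

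Groups followed the sample titles. A limma fit (limma 3.58.1, R 4.3.3) with 1 coefficient per group used 17 libraries, without the library labelled PLT1 replicate 3, and gave moderated two-sided tests with Benjamini-Hochberg adjustment over 21430 probe sets at 0.05. Members, 33 gene lists (379 of 409 genes measured) and tests were chosen with earlier results of these data known. The genes named were the 8 of the PLT/AIL family, then 15 called rises and 15 called falls of the greatest size (lines not overlapping, a single gene with a symbol on the probe set), then at most 4 calls per list, with 2 uncalled genes added to a list with fewer than 2 calls. IAA2, IAA14, GH3.6, PIP2;5, MYB28, MYB29, CCA1, LHY and other list members were picked outside that rule, with their values known. Simulated data with known changes served to test the fit. Alternatives changed the libraries fitted (all, fewer, each left out), the model (replicate number as a block, array weights, a robust variance with a trend), the scaling (median centring or quantiles), the probe sets (no dim ones, none that several genes share) and the minimum difference (2-fold). Leaving out mock libraries was added after the data were seen. Same-numbered libraries of the lines did not deviate together (r = -0.10, -0.03 and -0.16), so numbers do not pair them. Pairing with the mock libraries was not tested. The number of arrays limits the precision. The labels call the libraries biological replicates of separate flasks; the protocols name 3 extra flasks for mock, while 4 mock libraries are listed. A few list members are not reported here.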

Additional observations from a re-analysis of the deposited data

Results flagged for a closer look

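In mock, 1 of the 4 libraries stood far from the other 3 for 8 of 116 named genes. Chance gives 1 in 20 for independent genes, which these chosen genes are not known to be. The rule does not count a library that is merely the lowest. Mock replicate 3 was the lowest mock library in 13 of the 15 largest falls, against 29.0% of all probe sets. Mock replicate 4 was low for NIR1 (10.44, others 10.75 to 10.80), AGL15 (3.47, others 3.70 to 3.74), FIB1 (11.03, others 11.25 to 11.30) and CYP86A1 (6.80, others 7.36 to 7.46). Mock replicate 3 was high for EXPA5 (8.75, others 8.18 to 8.28) and low for BGAL4 (8.06, others 9.15 to 9.21). Mock replicate 1 was high for IAA1 (6.26, others 5.90 to 5.94) and low for AIL6 (4.59, others 4.73 to 4.76). Mock libraries also enter the pooled spread of the test between the lines, which called 1808 probe sets without mock replicate 3 and 1928 without mock replicate 4, against 1541.

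For PRE1 every PLT4 library lay above all mock libraries and every PLT5 library below them, and the test of the difference between the lines gave 1.37 ± 0.12 (limma, adjusted p = 3.54e-06).

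Outside the compared groups, the library labelled PLT1 replicate 3 had a PLT2 signal of 10.28, against 3.67 to 4.38 in the libraries it was set beside. Those did not include PLT5 replicate 3, whose raised PLT2 signal lies above that range.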

How the results depend on the processing

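No named call changed direction under any alternative, but many alternatives could not change it. Fits that kept all 6 compared libraries, without weights or rescaling, left the difference between the lines itself unchanged. The 15 largest rises and 15 largest falls were chosen for lines that did not overlap, so leaving out a single library could not reverse them. Of 82 named calls between the lines 27 held in every fit that tested them, the 2-fold minimum aside (19 were tested in all, and 8 were not among the probe sets once dim ones were left out). Called probe sets (1541: 767 higher, 774 lower) numbered 455 (223 and 232) with all 18 libraries, 2272 (1219 and 1053) with the 6 compared libraries, 2296 (1241 and 1055) with dex libraries only, 727 (325 and 402) without the 3 libraries with a raised signal of another PLT gene, 2686 (1487 and 1199) with array weights and 148 (50 and 98) at 2-fold. Against mock the 2-fold minimum left 1137 in the PLT4 line and 471 in the PLT5 line. Without a single library there were 668 to 1928 (308 to 1017 higher, 360 to 911 lower). The replicate block gave 1774 calls (916 higher, 858 lower). Same-numbered libraries of the compared lines did not deviate together, and whether numbers pair them with mock was not tested.

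Called aquaporins and aliphatic glucosinolate genes were 4 each with all 18 libraries and 3 and 5 at 2-fold, where 1 auxin response gene remained. Leaving out dim probe sets, which removes members, moved list medians to 0.81 (PLT/AIL), -2.40 (seed storage), 0.20 (auxin biosynthesis), 0.40 (auxin response), 0.14 (root meristem), -0.44 (lateral root), 0.0067 (growth-regulating factors), -0.16 (shoot meristem), 0.22 (gibberellin), 0.11 (ethylene), -0.34 (endodermis), -0.41 (xylem), -1.03 (aliphatic glucosinolate), 0.66 (heat, cold and drought) and 0.045 (iron). Such a value can rest on very few genes and is then no shift of the list. The seed storage value was that of CRA1 alone, where the median of all 9 measured members was -0.08. The lateral root value was that of LBD16 alone, and the PLT/AIL value the midpoint of BBM and AIL5. The auxin transport median was 0.0591 with median centring and 0.0547 with quantile normalisation, and the ethylene median 0.0526 with median centring and 0.0501 with array weights. Without a single library, medians ranged over 0.003 to 0.0848 (embryo regulators), 0.0531 to 0.11 (auxin transport), 0.21 to 0.30 (mitosis), -0.0267 to 0.0623 (shoot meristem), 0.0092 to 0.0863 (ethylene), -0.12 to -0.0219 (jasmonate), 0.0614 to 0.31 (heat, cold and drought) and -0.0323 to 0.0683 (nitrate). Other causes were not tested.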

Other observations

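Some of the largest differences were in probe sets for which the gene table has no symbol, given here by locus and chosen after their values were seen. AT1G53540 was 2.04 higher in the PLT4 line (adjusted p = 0.000503), AT2G23540 1.79 (adjusted p = 0.000433) and AT5G01870 1.50 (adjusted p = 2.11e-05). AT4G39675 differed by -2.39 (adjusted p = 2.89e-05), AT5G16030 by -2.12 (adjusted p = 4.79e-07) and AT4G28780 by -1.66 (adjusted p = 2.93e-05). AT5G16030 had the smallest adjusted p of all probe sets apart from the fusions.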
